A study of Mus musculus with 6 samples.

Results

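Fragments of the nuclear-encoded transfer RNA for aspartate with the anticodon GTC, tRNA-Asp-GTC, were described in small RNA libraries of mouse pulmonary artery smooth muscle cells. A sequence was taken as a fragment of this tRNA when every annotation the deposited table gives it names mature nuclear tRNA-Asp (mature-tRNA-Asp-GTC), and 1140 of the 38798 sequences of the table met this rule. The annotation suffix put 55 of them at the 5′ end, 50 at the 3′ end of the encoded tRNA and 1035 in between (internal), with 0 in the class that ends in the added CCA tail. No sequence was shared with another tRNA family. The cells were primary and of Wild type genotype in all 6 libraries. The 3 hypoxia libraries came from cells kept in 3% oxygen for 24 hours, and the 3 normoxia libraries from cells in standard culture. The design text calls the 3 cultures of each group biological replicates, and its question is which tRNA-derived small RNAs (tsRNAs) respond to hypoxia. The labels used here do not state the age, sex or passage of the cells. The labelled cell type could not be checked, since the table holds tRNA fragments and no marker genes.

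A tRNA folds into stems and loops: the D arm near the 5′ end, the anticodon arm in the middle and the T arm near the 3′ end. Stress is known to lead to cuts in such loops, and the ribonuclease angiogenin is known for cutting in the anticodon loop. In mammals the first anticodon base of tRNA-Asp is replaced by queuosine, which carries a mannose in this tRNA, and DNMT2 methylates the cytosine at position 38. Pandora-seq treats RNA with enzymes before library preparation so that modified fragments and fragments with other chemical ends can be sequenced. The series title names an internal tRNA-Asp fragment in hypoxic pulmonary hypertension.

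The mature tRNA was put together from overlapping deposited fragments, which share 17 bases, and has 72 bases, as do all 16 RefSeq genes of this tRNA on GRCm38. Those genes lie on chromosomes 1 (5 genes), 5 and 13 (3 each), 10 and 11 (2 each) and 2 (1), and no fragment was assigned to a single copy. Each fragment is named by its first and last position on this tRNA. The sequences below are the whole tRNA and some of the fragments described. They are the most abundant 5′ fragment, a 5′ fragment cut inside the anticodon, a short fragment that holds the whole anticodon (32-46), and fragments that begin with the base just after the anticodon. Capitals mark the anticodon, at positions 34 to 36.
joined mature tRNA-Asp-GTC: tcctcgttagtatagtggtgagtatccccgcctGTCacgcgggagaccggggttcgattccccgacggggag
1-18: tcctcgttagtatagtgg
1-34: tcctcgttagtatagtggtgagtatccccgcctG
32-46: ctGTCacgcgggaga
37-56: acgcgggagaccggggttcg
37-57: acgcgggagaccggggttcga
37-68: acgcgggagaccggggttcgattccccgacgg
37-69: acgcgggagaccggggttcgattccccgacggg
37-72: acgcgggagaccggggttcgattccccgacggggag

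Of the 1140 sequences, 820 matched the joined tRNA exactly, 318 differed by 1 base and 2 could not be placed. They were 15 to 45 nt long, 263 occurred in all 6 libraries and 381 in 1 library only. The signal was concentrated: 7 sequences held 50% of the mean level and 138 held 90%. tRNA-Asp ranked at position 20 of 51 nuclear families by mean level.

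The libraries differed in depth and make-up by replicate number. Total counts were 510519, 2563749 and 1713960 in the hypoxia libraries 1 to 3 and 330787, 2217965 and 1629726 in the normoxia libraries 1 to 3. In both replicate 1 libraries tRNA-Asp made up more of the counts (4.60% in hypoxia, 3.48% in normoxia) than in the other 4 (0.909% to 1.22%). These libraries also held more mitochondrial fragments (15.3% and 14.4% against at most 7.33%) and had the lowest totals. The main results are therefore given by library, so that the values of replicates 2 and 3 can be read alone.

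The sum of all tRNA-Asp fragments was 45959, 12164 and 11823 counts per 1000000 of the library total (CPM) in hypoxia libraries 1 to 3 and 34847, 10490 and 9088 CPM in normoxia libraries 1 to 3. Hypoxia was the higher of each same-numbered pair, by 1.32-, 1.16- and 1.30-fold, and the groups overlapped because the replicate 1 libraries stood above the rest. The difference did not exceed the spread between libraries (two-sided exact permutation test, p = 0.5, n = 3 per group, where 0.1 is the smallest p that 3 against 3 can give). In RNA from whole cultures, a difference in the number of cells that hold a fragment and a difference in its level per cell cannot be told apart.

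Internal fragments had 14662, 7958 and 7914 CPM in hypoxia and 11161, 6444 and 5824 CPM in normoxia. They were higher in hypoxia in 3 of 3 pairs, with overlapping groups (10178 ± 3883 against 7810 ± 2919 CPM, SD, n = 3 each, exact permutation p = 0.5). Fragments of the 3′ end had 2983, 1316 and 1259 CPM in hypoxia against 2028, 1048 and 801 CPM in normoxia. These too were higher in 3 of 3 pairs, by 1.47-, 1.26- and 1.57-fold, and the groups overlapped (exact permutation p = 0.5). Fragments of the 5′ end had 28314, 2890 and 2649 CPM in hypoxia and 21657, 2998 and 2463 CPM in normoxia. Only pairs 1 and 3 were higher in hypoxia (1.31- and 1.08-fold), pair 2 was at 0.964-fold, and the exact permutation p was 0.7. After Benjamini-Hochberg adjustment over the 4 sums, the p-values were 0.667 for internal, 3′ and all fragments and 0.7 for 5′ fragments.

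**Figure D1:**
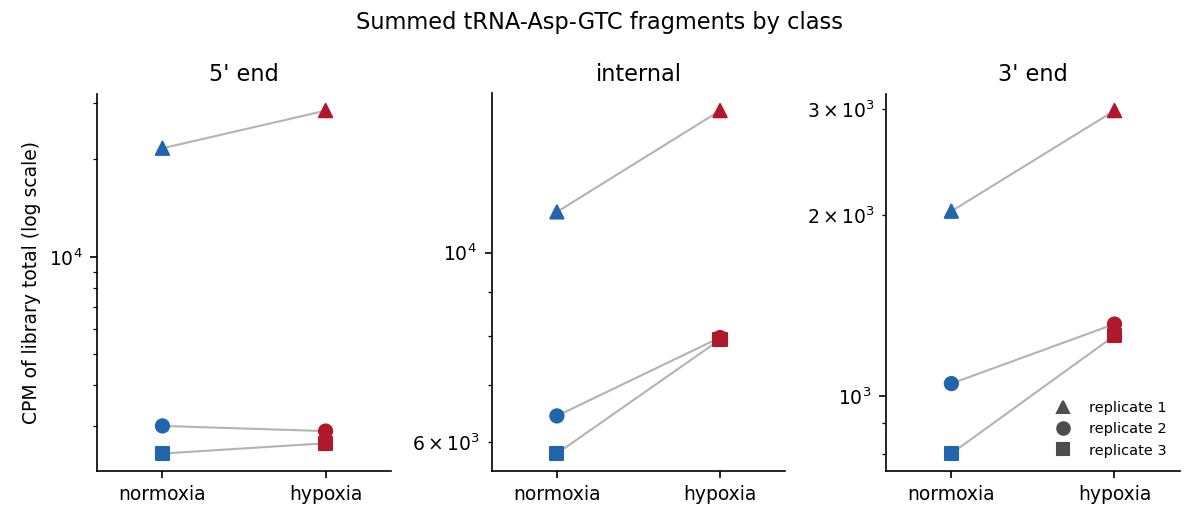
Summed CPM (log axis) of 5′, internal and 3′ fragments of tRNA-Asp-GTC in the normoxia and hypoxia libraries, with lines joining same-numbered libraries. Internal and 3′ fragments are higher in hypoxia along all 3 lines, 5′ fragments along lines 1 and 3, and both replicate 1 libraries lie above the others in each panel.

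The replicate 1 libraries also divided their tRNA-Asp counts differently among the classes. Fragments of the 5′ end were 61.6% (hypoxia) and 62.1% (normoxia) of tRNA-Asp counts there, against 22.4% to 28.6% in the other 4 libraries. The log2 ratio of internal to 5′ fragments was larger in hypoxia by 0.007, 0.36 and 0.34 in pairs 1 to 3 (exact permutation p = 0.5 over groups, and 0.25, the smallest 3 pairs can give, in an exact sign-flip test over pairs). A different response of the 2 classes was therefore not shown.

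The 3 class sums were also tested with edgeR's quasi-likelihood test among the 276 sums of tRNA families by fragment class. The log2 difference, hypoxia against normoxia, was 0.54 (SE 0.28) for the 3′ end, 0.41 (SE 0.28) for internal fragments and 0.32 (SE 0.88) for the 5′ end, with a Benjamini-Hochberg adjusted p of 0.999 for each. With the replicate number as a block the estimates were 0.55 (SE 0.16), 0.41 (SE 0.13) and 0.18 (SE 0.15), with adjusted edgeR p-values of 0.372, 0.372 and 0.591. None of the 3 sums passed in either fit. At an unadjusted p under 0.05 the blocked edgeR fit passed the 3′ and internal sums, both higher, where 5.80% of all 276 sums passed as higher and 5.07% as lower.

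By position, for which only exact matches to the joined tRNA were summed (95.1% to 96.4% of the tRNA-Asp counts of a library), the fragments formed a small number of sharp starts and ends. Among 5′ fragments, 1-18 dominated in every library, with 72.1% to 76.9% of the fragments that begin at base 1. It ends in the D loop. This fragment had 20383, 2043 and 1977 CPM in hypoxia and 15617, 2257 and 1802 CPM in normoxia. The groups overlapped and pairs 1 and 3 were higher in hypoxia (edgeR log2 difference 0.32, SE 0.998, Benjamini-Hochberg adjusted p = 0.9999). The fragment 1-15, also of the D loop, had 1808, 85.4 and 62.4 CPM in hypoxia and 1242, 70.8 and 109 CPM in normoxia. It was far higher in both replicate 1 libraries than in the others, and the groups overlapped.

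Longer 5′ fragments ended in the anticodon loop at positions 32, 34 and 36. The fragment 1-34, which keeps the first anticodon base, had 1250, 55.8 and 40.3 CPM in hypoxia and 677, 67.6 and 38.04 CPM in normoxia. Its CPM were far higher in both replicate 1 libraries than in the others, and pair 2 was lower in hypoxia. The fragment 1-32, which stops before the anticodon, had 607, 139 and 128 CPM in hypoxia and 837, 112 and 139 CPM in normoxia. It was lower in hypoxia in pairs 1 and 3 and higher in pair 2. Neither passed edgeR's test (Benjamini-Hochberg adjusted p = 0.9999 for both).

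**Figure D2:**
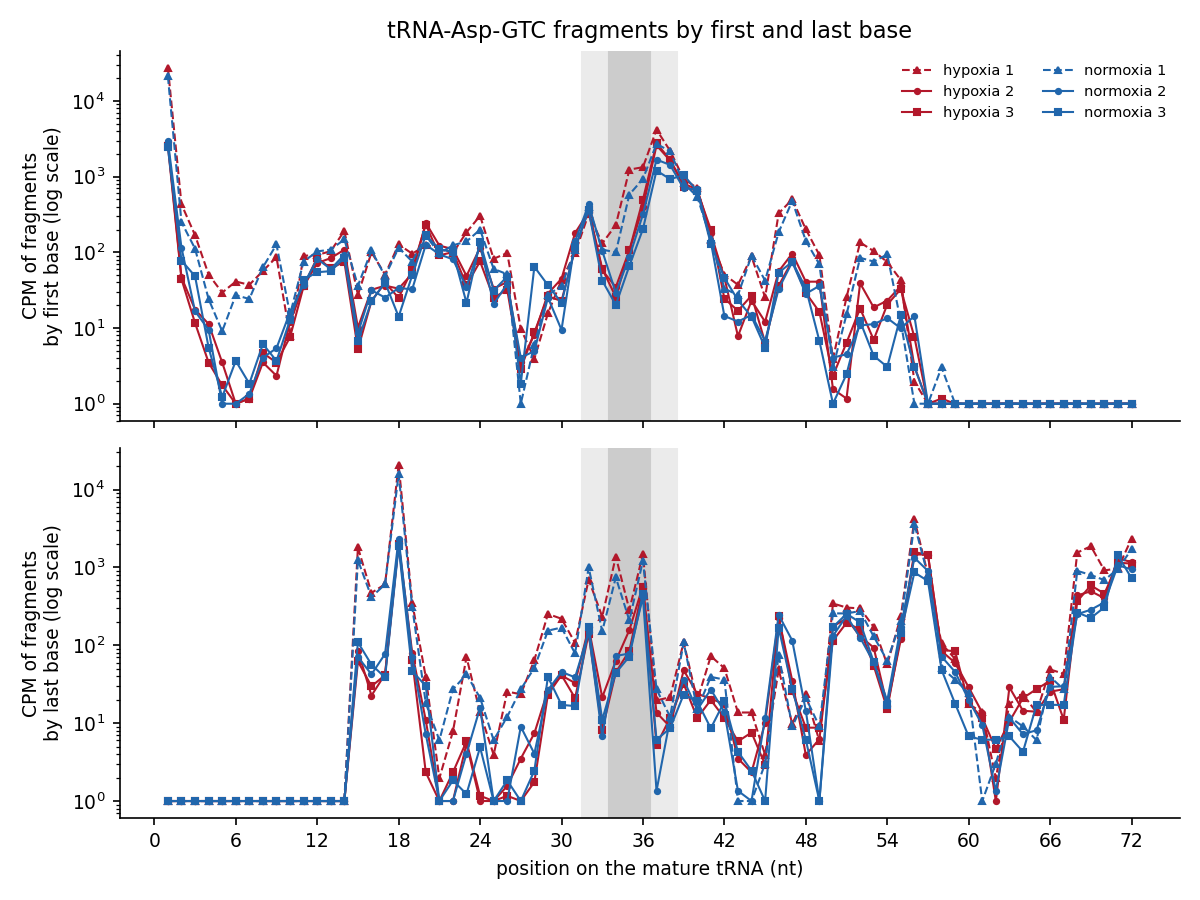
CPM (log axis, values under 1 drawn at 1) of the exactly matching tRNA-Asp-GTC fragments by first base (top) and last base (bottom) along the 72 positions, 1 line per library, dashed for replicate 1. Light grey marks the anticodon loop, dark grey the anticodon. Starts peak at base 1 and at bases 37 and 38, and ends peak at bases 18, 36, 56, 57 and 68 to 72.

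Of the fragments that begin after base 1, 64.02% to 76.5% by library began at bases 35 to 41, and 33.6% to 51.2% at bases 37 or 38. Fragments that begin at base 37, the first base after the anticodon, had a mean level over 6 libraries of 2522 CPM (1204 to 4182 CPM). At base 38, the DNMT2 cytosine, the mean was 1670 CPM (927 to 2194 CPM). These were the highest mean levels of any start after base 1. Base 39 had a mean of 842 CPM (697 to 1048 CPM), base 40 of 651 CPM (541 to 705 CPM) and base 32, the first of the loop, of 369 CPM (323 to 430 CPM). Starts inside the anticodon were raised in the replicate 1 libraries. Base 36 had 1334 and 934 CPM in hypoxia and normoxia library 1 against 203 to 498 CPM in the other 4, and base 35 had 1238 and 580 CPM against 66.3 to 106 CPM.

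A cut between 2 bases leaves a 5′ piece and a 3′ piece, and the levels of these partners differed by bond. The 5′ pieces counted here begin at base 1, while the 3′ side holds all fragments that begin at the next base, whatever their end. Between bases 34 and 35 the 5′ piece, 1-34, had 1250 and 677 CPM in hypoxia and normoxia library 1, against 1238 and 580 CPM for fragments of the 3′ side. In the other 4 libraries it had 38.04 to 67.6 CPM against 66.3 to 106 CPM, so that the 3′ side was the higher in those 4 of 6 libraries. Between bases 36 and 37 the mean values were 322 CPM (5′ piece) and 2522 CPM, and the 3′ side was the higher in 6 of 6 libraries. Counted over all starts, fragments that end at base 36 had a mean of 877 CPM in hypoxia and 700 CPM in normoxia. Fragments that begin at base 37 had 3178 and 1866 CPM. Between bases 37 and 38 they were 1.97 and 1670 CPM, again in 6 of 6 libraries. Between bases 32 and 33 the order was the other way in 6 of 6 libraries, with 327 CPM for 1-32 and 84.3 CPM for fragments that begin at base 33. How well each piece is captured and sequenced was not tested.

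Fragments that begin at bases 35 to 41 ended at 2 places. One was the T loop, at bases 55 to 57, and the other the last encoded bases, 68 to 72. From base 37, on average 58.7% (46.1% to 66.4% by library) ended at bases 55 to 57, and from base 39 16.1% (8.31% to 24.4%). The exact 3′ position also differed by start. Base 71 was the last base of 39.8% of the fragments that begin at base 39 (17.1% to 61.8%) but of 3.89% of those that begin at base 37 (2.69% to 5.86%). Long fragments that begin at base 37 had mean levels of 232, 276 and 214 CPM at the last bases 68, 69 and 72, against 108 and 91.1 CPM at bases 70 and 71. No fragment ended in the added tail, whose last base would be position 75. At least 1 count of a CCA end was held by 43 of the 51 nuclear families and by all 22 mitochondrial families.

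The most abundant internal fragments were the T-loop ends of starts 37 and 38. The fragment 37-56 had 1479, 663 and 754 CPM in hypoxia and 1273, 492 and 373 CPM in normoxia. It was higher in hypoxia in 3 of 3 pairs and the groups overlapped (edgeR log2 difference 0.50, SE 0.51, Benjamini-Hochberg adjusted p = 0.9999). The fragment 37-57, longer by 1 base, had 351, 821 and 819 CPM in hypoxia and 323, 447 and 380 CPM in normoxia. In each group it was lowest in the replicate 1 library, and it was higher in hypoxia in 3 of 3 pairs with overlapping groups (log2 difference 0.83, SE 0.65, edgeR adjusted p = 0.9999). The fragment 38-56 had 1005, 312 and 339 CPM in hypoxia and 937, 396 and 169 CPM in normoxia, lower in hypoxia in pair 2 and higher in the others. The same end from earlier starts followed the replicate number: 35-56 had 380, 26.1 and 11.7 CPM in hypoxia and 233, 18.5 and 23.9 CPM in normoxia. For 36-56 the values were 335, 85.4 and 116 CPM in hypoxia and 284, 95.1 and 69.95 CPM in normoxia. Both were highest in the replicate 1 libraries, with overlapping groups and 2 of 3 pairs higher in hypoxia.

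The 5 fragments that run from base 37 to bases 68 to 72 were each higher in hypoxia in 3 of 3 pairs, with estimates of the log2 difference from 0.30 to 1.36. The fragment 37-68 had 590, 209 and 197 CPM in hypoxia and 248, 93.8 and 55.8 CPM in normoxia. The fragment 37-69 had 654, 243 and 281 CPM in hypoxia and 251, 150 and 78.5 CPM in normoxia. The complete 3′ piece 37-72 had 543, 161 and 193 CPM in hypoxia and 251, 87.0 and 47.2 CPM in normoxia. All 3 were higher in hypoxia in 3 of 3 pairs, and the groups overlapped since normoxia library 1 lay above hypoxia libraries 2 and 3 in 37-68 and 37-72 and above library 2 in 37-69. With the group alone the log2 differences were 1.36 (SE 0.60), 1.29 (SE 0.55) and 1.27 (SE 0.64), and none passed edgeR's test (Benjamini-Hochberg adjusted p = 0.9999 each).

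The estimates for ends 70 and 71 were smaller. The fragment 37-70 had 108, 158 and 161 CPM in hypoxia and 57.4, 111 and 52.8 CPM in normoxia (log2 difference 0.93, SE 0.65). The fragment 37-71 had 123.4, 69.8 and 106 CPM in hypoxia and 112, 64.5 and 70.6 CPM in normoxia (log2 difference 0.30, SE 0.52). The groups of both overlapped. Fragments that end at base 69 and begin 1 or 2 bases earlier were higher in 3 of 3 pairs too. For 36-69 the values were 347, 46.8 and 86.3 CPM in hypoxia and 199.5, 18.03 and 22.7 CPM in normoxia, and the blocked log2 difference was 1.35 (SE 0.40). The fragment 35-69 had 286, 19.9 and 13.4 CPM in hypoxia and 60.5, 6.31 and 7.36 CPM in normoxia, with a blocked log2 difference of 1.62 (SE 0.49). The groups overlapped and neither passed edgeR's test with the block (adjusted p = 0.279 and 0.323). These 4 fragments were named after their values were seen, and no test compared the last bases with each other.

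With the replicate block 37-68, 37-69 and 37-72 had log2 differences of 1.40 (SE 0.34), 1.29 (SE 0.34) and 1.33 (SE 0.36), and edgeR's adjusted p was 0.111, 0.181 and 0.186. DESeq2 with the same block, added after the data were seen, called 37-68 (log2 difference 1.36, adjusted p = 0.0161) and 37-69 (1.26, adjusted p = 0.0415) but not 37-72 (1.29, adjusted p = 0.0508). It called 0.248% of all 6452 tested tsRNAs as higher and gave no adjusted p for 2877 of them. With limma voom and the block none of the 3 passed (adjusted p = 0.0727 for 37-68 and 0.105 for the other two). The calls of 37-68 and 37-69 thus hold in 1 of the 13 fits that used all 6 libraries or whole pairs. Over the alternatives the adjusted p of 37-68 ran from 0.0161 up to 0.9999 and its log2 difference from 1.01 to 1.77.

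Taken by first base alone, fragments that begin at base 37 summed to 4182, 2593 and 2759 CPM in hypoxia and 2715, 1680 and 1204 CPM in normoxia. They were higher in 3 of 3 pairs, by 1.54-, 1.54- and 2.29-fold, with 1 overlap between the groups, since normoxia library 1 lay above hypoxia library 2 (exact permutation p = 0.2). As a share of all fragments that begin at bases 35 to 41, start 37 made up 38.9%, 40.6% and 41.6% in hypoxia and 34.4%, 33.4% and 28.5% in normoxia. The groups of this share did not overlap, and the exact permutation p was 0.1, the smallest that 3 against 3 can give. This share does not depend on the library totals and was chosen after its values were seen. Shares of the other starts from base 35 to base 41 overlapped between the groups. Start 39 was at 8.74%, 12.6% and 11.2% in hypoxia and 10.4%, 13.9% and 24.8% in normoxia.

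**Figure D3:**
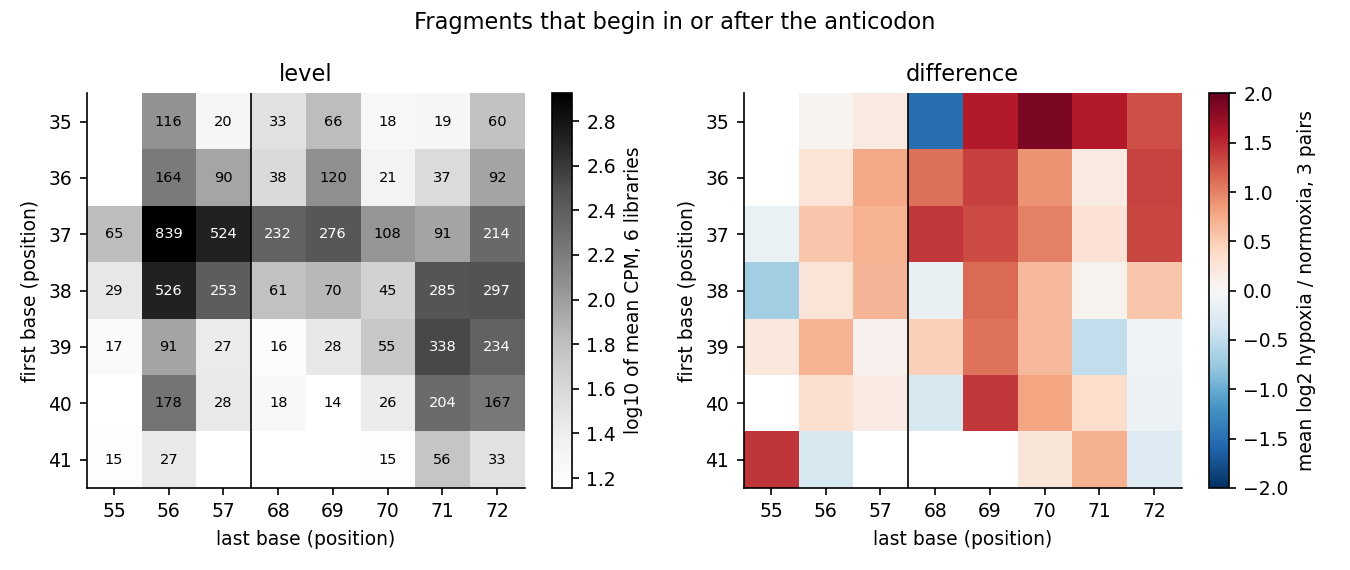
Exactly matching fragments that begin at bases 35 to 41 (rows) and end in the T loop or at the last encoded bases (columns): mean CPM over the 6 libraries on the left, and on the right the mean over the 3 same-numbered pairs of the log2 ratio of hypoxia to normoxia, with cells under 10 CPM left blank. The cells of start 37 are red for ends 68, 69 and 72, and 39-71, which was higher in hypoxia in 1 of 3 pairs, is blue. At end 69 the cells of all starts from 35 to 40 are red.

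By last base over all starts, fragments that end at base 69 summed to 1875, 495 and 588 CPM in hypoxia and 801, 287 and 225 CPM in normoxia, higher in 3 of 3 pairs with overlapping groups. Fragments that end at base 71 had 972, 1322 and 1150 CPM in hypoxia and 964, 1069 and 1425 CPM in normoxia, higher in 2 of 3 pairs. The levels of these 2 ends thus differed between the groups by different amounts, and the difference was not tested.

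Fragments that begin later than base 37 and end at base 71 or 72 had no common direction. The fragment 39-72 had 290, 200 and 198 CPM in hypoxia and 275, 202 and 241 CPM in normoxia, so the groups overlapped and 1 of 3 pairs was higher. The fragment 39-71 had 161, 389 and 280 CPM in hypoxia and 257, 295 and 647 CPM in normoxia. Normoxia library 3 was the highest of the 6, and 1 of 3 pairs was higher in hypoxia (edgeR log2 difference -0.56, SE 0.72, adjusted p = 0.9999). For 40-72 the values were 106, 195 and 181 CPM in hypoxia and 127, 238 and 158 CPM in normoxia, higher in 1 of 3 pairs. The fragment 38-72 had 339, 382 and 311 CPM in hypoxia and 366, 239 and 147 CPM in normoxia, higher in 2 of 3 pairs. The groups of both overlapped. At end 69, 38-69 was higher in hypoxia by 2.15-, 1.77- and 2.76-fold over the pairs. The fragment 39-69 was higher by 2.68-, 1.79- and 1.96-fold, and its groups did not overlap. Neither passed edgeR's test with the block (adjusted p = 0.577 and 0.821). At lower levels, 40-69 was higher in 3 of 3 pairs and 41-69 in 1 of 3. These fragments of end 69 were picked after their values were seen. The difference in response between start 37 and later starts was not tested for single fragments.

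In the test of single tsRNAs, 223 of the 1140 sequences passed the filter on low counts (25 of the 5′ end, 176 internal and 22 of the 3′ end) and held 92.6% of the tRNA-Asp counts. Called in edgeR with the group alone were 0 higher and 0 lower, and the percentage called among all 6452 tested tsRNAs was 0 in each direction. With no adjustment of the p-values, 3 of the 223 were higher and 0 lower at 0.05, where 0.279% of all tested tsRNAs were higher and 0.418% lower. The 3 were 37-69, 55-69 and a variant of 38-71 described below. The log2 difference was above 0 for 151 of the 223 (67.7%, against 51.3% of all tested tsRNAs), with a median of 0.34 against 0.02 for all. The groups did not overlap for 6 of the 223 with hypoxia higher (2.69%, against 2.32% of all) and for 4 with hypoxia lower (1.79%, against 2.51%).

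With the replicate block, edgeR called 0 of the 223 in either direction, where 0.0775% of all tested tsRNAs were called higher and 0.0775% lower. Before adjustment, at a p under 0.05, 22 were higher and 0 lower, which is 9.87% of the 223 against 3.41% of all tested tsRNAs for higher and 0 against 2.98% for lower. The log2 difference was above 0 for 147 of the 223 (65.9%, against 51.1% of all). With replicates 2 and 3 only and the group alone, it was above 0 for 127 of 217 tested tRNA-Asp fragments. Of all tsRNAs tested in that fit, 3287 of 6498 were above 0. Of the 22, 16 begin in the anticodon loop, at bases 32 to 38, where 77 of the 223 tested fragments (34.5%) begin. At bases 36 or 37, a window chosen after the values were seen, begin 10 of the 22 and 34 of the 223 (15.2%). They overlap in sequence and are not independent of each other. Outside this region, 55-69, which begins in the T loop, had 33.3, 33.5 and 24.5 CPM in hypoxia and 12.1, 9.02 and 4.30 CPM in normoxia. Its groups did not overlap (log2 difference 1.90, SE 0.67, edgeR adjusted p = 0.9999 with the group alone and 0.467 with the block). At low levels, 22-53, which spans the anticodon, had 21.5, 10.5 and 13.4 CPM in hypoxia and 12.1, 1.35 and 2.45 CPM in normoxia. The fragment 34-68, the most abundant that begins with the anticodon, had 52.9, 7.41 and 7.58 CPM in hypoxia and 27.2, 0.451 and 2.45 CPM in normoxia. Both were higher in 3 of 3 pairs, with overlapping groups and blocked edgeR adjusted p-values of 0.77 each.

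**Figure D4:**
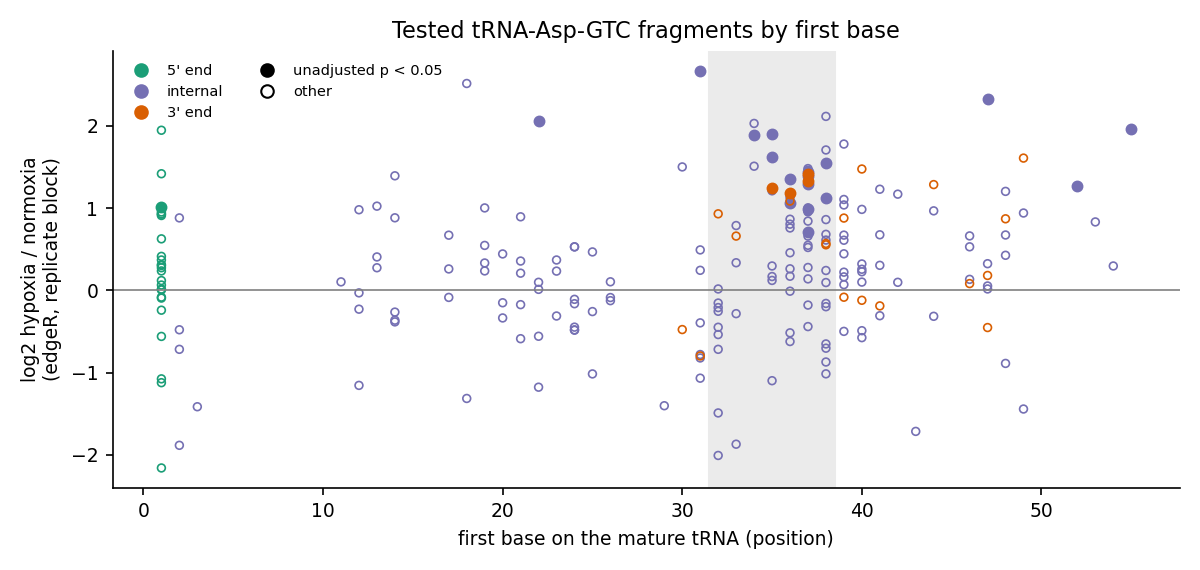
Log2 difference, hypoxia against normoxia, from edgeR with the replicate block for each placed tRNA-Asp-GTC fragment that passed the count filter, by its first base, with colours for the class and filled points for an unadjusted p under 0.05. The shaded band is the anticodon loop, bases 32 to 38, where 16 of the 22 filled points and 77 of all 223 points lie, and all filled points are above 0.

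The sequences with the smallest p among those lower in hypoxia were at low levels. The fragment 33-52 had 3.92, 1.17 and 6.42 CPM in hypoxia and 18.1, 8.57 and 11.7 CPM in normoxia, without overlap. The fragment 2-31, which lacks the first base, had 5.88, 2.34 and 1.17 CPM in hypoxia and 6.05, 12.2 and 8.59 CPM in normoxia, also without overlap. Of the other two, 32-47 had 1.96, 8.19 and 7.58 CPM in hypoxia and 6.05, 61.8 and 6.14 CPM in normoxia, so that normoxia library 2 set its difference. The fragment 43-70 had 7.84, 0.78 and 2.33 CPM in hypoxia and 21.2, 2.25 and 11.0 CPM in normoxia, lower in hypoxia in 3 of 3 pairs. The groups of both overlapped. None passed edgeR's test with or without the block (adjusted p of 0.845 or more in both fits). Short tested fragments that begin at base 32 or 33 and end at bases 46 to 52 hold the whole anticodon. In edgeR with the block their log2 differences were -0.15 (32-46), -1.49 (32-47), -0.45 (32-51), -0.21 (32-52), -0.28 (33-47) and -1.87 (33-52). With the group alone 32-46 (0.02) and 32-52 (0.04) lay just above 0. None was called in either fit, and a common direction was not tested. The fragment 32-46 had 37.2, 190 and 221 CPM in hypoxia and 72.6, 216 and 158 CPM in normoxia, so it was lowest in the replicate 1 libraries and higher in hypoxia in 1 of 3 pairs. The fragment 33-47 had 3.92, 25.0 and 8.17 CPM in hypoxia and 3.02, 42.4 and 7.36 CPM in normoxia, with overlapping groups and 2 of 3 pairs higher.

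Single-base differences from the joined tRNA were concentrated at positions 20 and 56, counted from the 5′ end. The form G20T, in the D loop, made up 14.4%, 10.9% and 14.5% of the counts that cover position 20 in hypoxia and 13.4%, 10.8% and 10.4% in normoxia. The form G56A, in the T loop, made up 9.17%, 4.69% and 5.37% of the counts that cover position 56 in hypoxia and 6.15%, 4.48% and 4.25% in normoxia. Both shares overlapped between the groups (exact permutation p = 0.2 and 0.5, adjusted over both 0.4 and 0.5). All other placed sequences with a mismatch were 10 sequences with 47 counts. Of the sequences long enough to span both positions, 26 with 712 counts had G at both, 2 with 3 counts had T and A, and 0 had only 1 of the changes. Whether gene copies encode the 2 forms was not tested here.

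The G and A forms at position 56 ended at different places. Among fragments that begin at bases 35 to 41 and reach base 56, those with G ended at base 56 or 57 in 43.1%, 43.5% and 44.8% of counts in hypoxia and in 52.1%, 43.7% and 34.01% in normoxia. Those with A did so in 1.69%, 2.51% and 4.14% in hypoxia and in 1.89%, 2.30% and 7.87% in normoxia. The G form was higher in 6 of 6 libraries, by 40.2 ± 7.77 percentage points (SD over libraries), and the exact sign-flip test over the 6 libraries gave p = 0.03125, the smallest it can give. This comparison was chosen after its values were seen. The A counts that reach base 56 were 159 to 798 per library. How the authors' annotation treats short sequences with a mismatch near their end was not tested.

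The sequence pair below shows the 2 forms of the fragment 38-71, with the base at position 56 of the second in capitals.
38-71: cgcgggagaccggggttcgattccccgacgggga
38-71 G56A: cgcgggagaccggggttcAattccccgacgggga
The A form of this fragment had 49.0, 53.0 and 39.1 CPM in hypoxia and 24.2, 16.7 and 10.4 CPM in normoxia. Every hypoxia library lay above every normoxia library (edgeR log2 difference 1.53, SE 0.61, adjusted p = 0.9999 with the group alone and 0.477 with the block). It was named for its small unadjusted p.

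**Figure D5:**
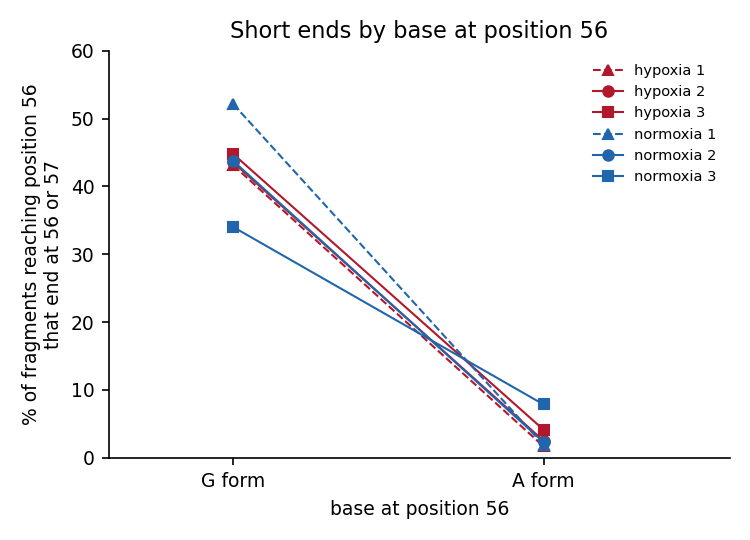
Percentage of tRNA-Asp-GTC fragments that begin at bases 35 to 41 and reach base 56 that end at base 56 or 57, for the common form with G at position 56 and the form with A, 1 line per library and dashed for replicate 1. All 6 lines fall from the G form (34.01% to 52.1%) to the A form (1.69% to 7.87%).

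Families that share the modifications of tRNA-Asp were set beside it. The other queuosine tRNAs, for asparagine, histidine and tyrosine, gave 11 tested sums by class, of which edgeR called 0 with or without the block, with a median log2 difference of 0.05 against 0.06 for all 276. The other DNMT2 substrates, tRNA-Gly-GCC and tRNA-Val-AAC, gave 20 sums, some of sequences shared with other families, and edgeR called 0 (median 0.20). At an unadjusted p under 0.05 with the group alone, edgeR passed 0 of both sets, where 0.725% of the 276 sums were higher and 0.362% lower. With the block an unadjusted p under 0.05 was reached by 1 of the 11 queuosine sums, lower in hypoxia (median -0.05), and by 2 of the 20 DNMT2 sums, higher (median 0.09). Over all 276 sums with the block, 5.80% were higher and 5.07% lower, with a median of 0.03. Summed tRNA-His-GTG had 40169, 44994 and 38051 CPM in hypoxia and 38297, 38099 and 39763 CPM in normoxia, so unlike tRNA-Asp it was not raised in the replicate 1 libraries. Like tRNA-Asp, tRNA-Asn-GTT was highest there, with 7921 CPM in hypoxia and 6367 CPM in normoxia against 5347 to 5902 CPM in the others. In neither group was tRNA-Tyr-GTA highest in the replicate 1 library. The groups overlapped for all 3 queuosine families and both DNMT2 families.

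Over the 6 libraries, the families whose centred log2 levels lay closest to that of tRNA-Asp were tRNA-Arg-ACG, tRNA-Ile-AAT and tRNA-Pro-TGG, with root-mean-square differences of 0.17, 0.20 and 0.22 among the 49 families compared. Of these, tRNA-Pro-TGG was higher in hypoxia in 3 of 3 pairs (1.09-, 1.15- and 1.29-fold) and the other two in 2 of 3. The farthest was tRNA-Ala-TGC, at 2.29. All families share the libraries and their depths. Summed tRNA-Arg-ACG, like tRNA-Asp, was highest in both replicate 1 libraries, with 6503 CPM in hypoxia and 7107 CPM in normoxia against at most 2119 CPM in the others. The ranking used these same levels, so this likeness follows from how the family was picked.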

How the data were processed

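The deposited values are raw counts per distinct sequence in 6 libraries, per the file headers; they were made by the authors from Pandora-seq libraries of TRIzol-extracted total RNA, per the labels. The submitters' processing notes name the build mm10, and no source used here gives the aligner, the annotation tool or a filter. The sample titles gave the group and the replicate number. The members and lists were chosen with earlier results of these data known. CPM are counts per 1000000 of each library total.

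Tests across all sequences of the table used the quasi-likelihood test of edgeR 4.0.16 under R 4.3.3 with the group as the only term, TMM factors and the filterByExpr filter. A Benjamini-Hochberg adjusted p under 0.05 was a call. The SE given for edgeR is the absolute log2 difference divided by the square root of the F statistic of the same test. It is therefore not a separate estimate of precision. The script recovered most of the large changes set in simulated counts that had no replicate effect. That checks the code and does not measure the power to find differences of the size seen here. DESeq2 1.42.0 and limma 3.58.1 (voom) were other tools. Single values were compared by two-sided exact permutation of the 6 libraries. With the group alone, the error behind a p is the spread between the 3 cultures of a group. In the blocked fits it is the spread left after the replicate number is taken out. The sign-flip tests use differences within pairs or within libraries. No paired design is stated, so the replicate block was an alternative to the fit with the group alone. Same-numbered libraries deviated together from their group means (correlations of 0.845, 0.617 and 0.559 over 9023 tsRNAs). Each group was centred on its own mean, so a shift of both replicate 1 libraries alone moves libraries 2 and 3 together. Libraries of different number were not compared, so these values do not show that libraries 2 and 3 form pairs. Same-numbered libraries are called pairs for description, and blocked values are given for some results only.

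Fragments were placed on the joined tRNA allowing 1 mismatch, sums by position used exact matches only, and RefSeq genes are on GRCm38, the assembly of mm10. None of the 16 genes had an entry in the promoter table. Named with values are the 4 most abundant fragments of each class, the 4 higher and 4 lower with the smallest p at different starts, the most abundant at each start in the anticodon loop, and those called in any fit with all libraries. Product groups by start and end, shares by start and the comparison of the 2 forms at position 56 were chosen after values were seen. Alternatives were other scalings, filters, tools, designs and left-out libraries. Reads without molecular identifiers are not independent molecules.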

Additional observations from a re-analysis of the deposited data

How the results depend on the processing

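Low totals limit the replicate 1 libraries, in which 1 count is worth more CPM than elsewhere, and 3 cultures per group cannot reach a p under 0.1 in the exact test. The number of single tRNA-Asp fragments called was 0 in every fit but 1, DESeq2 with the replicate block, which was added after the data were seen and called 2. The blocked fits changed no other call. No class sum was called in any fit. The direction of internal and 3′ fragments held in every setting that kept whole pairs. Leaving out replicate 1 in both groups gave log2 ratios of 0.37 for internal, 0.48 for 3′ and 0.02 for 5′ fragments, and reversed fragments ending at base 31 or before (-0.077) and, in edgeR, 1-15 (-0.32), 1-18 (-0.052), 1-32 (0.052), 1-34 (-0.18) and 35-56 (-0.20). The fragment 1-15 also reversed with a term for replicate 1 (-0.0044), with the block and DESeq2 size factors (-0.0216) and with the block in DESeq2 (-0.0217). The fragment 32-46 reversed with DESeq2 size factors (-0.00805), library size scaling (-0.012), DESeq2 (-0.00806), voom (-0.22), the replicate block (-0.15), the term for replicate 1 (-0.15), the block with DESeq2 size factors (-0.19), the block in DESeq2 (-0.19) and the block in voom (-0.026). Leaving out 1 library at a time, hypoxia or normoxia replicate 1 above all, moved log2 ratios of sums from -1.71 to 2.05 (5′), from -0.0054 to 1.003 (3′) and from -0.60 to 1.25 (all). By start the ranges were -1.71 to 2.04 (base 1), -0.30 to 0.52 (bases 2 to 31) and -0.17 to 0.35 (base 39 on), and by end -1.76 to 1.98 (base 31 or before) and -0.80 to 1.41 (bases 32 to 38). Differences in shares ranged from -16.2 to 8.08 (5′), -8.00 to 13.7 (internal) and -0.082 to 2.53 (3′) percentage points, the log2 ratio of internal to 5′ fragments from -0.48 to 1.06, and the edgeR value of the 5′ sum from -0.88 to 1.25. For single fragments the ranges were -2.08 to 2.24 (1-15), -1.18 to 1.46 (1-18), -0.93 to 0.77 (1-32), -1.84 to 2.47 (1-34), -0.43 to 0.54 (32-46), -2.55 to 0.29 (32-47), -1.74 to 1.32 (33-47), -1.68 to 2.10 (35-56), -0.17 to 0.72 (36-56), -0.23 to 0.58 (38-56), -0.99 to 0.25 (39-71), -0.22 to 0.11 (39-72) and -0.45 to 0.37 (40-72). The cause was not tested.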
